A study of Mus musculus with 2 samples.

Results

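Detoxification enzymes clear foreign chemicals and reactive products of the cell's own lipids. Cytochrome P450 enzymes introduce oxygen into their substrates, aldehyde dehydrogenases and the aldo-keto reductases of the Akr1 family convert aldehydes and ketones, and glutathione transferases and UDP-glucuronosyltransferases attach a polar group to the product. In skin, several of these enzymes also act on fatty acids, steroids and retinoids. The genes described here are those whose symbol places them in the glutathione transferase, aldehyde dehydrogenase, UDP-glucuronosyltransferase or Akr1 families or in P450 families 1 to 4, without Aldh1a1, Aldh1a2 and Aldh1a3. They were picked by gene symbol, and this choice was made with earlier results of these data known. The rule found 169 probe sets of 121 genes among the 18193 genes with a probe set of their own. There were 56 P450 genes, 23 glutathione transferases, 17 aldehyde dehydrogenases, 14 Akr1 reductases and 11 glucuronosyltransferases.

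The 2 samples came from back skin of CD-1 mouse pups at postnatal day 4 (P4) with the genotype K14-RFP/Sox9-EGFP, and both carried both reporters. RFP was driven from the keratin 14 promoter of basal keratinocytes, and EGFP reported Sox9, a transcription factor of follicle stem cells. Early bulge cells were sorted as bright for both reporters. Non-bulge outer root sheath (ORS) cells were sorted as bright for RFP and without EGFP. Each population was hybridised to 1 array, so no value has a replicate and no test between the populations was possible. The sources used here do not give the number of animals behind each sort.

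Signals are MAS5 intensities in arbitrary units, and the trimmed mean of each array was 500.0. Where a gene had several probe sets, the brightest by mean log2 signal stood for it. Signals under the 40th percentile of all signals (57.8) were raised to that floor, and a gene counts as measured when either array reached it. The highest negative control signal was 28.1. Ratios are early bulge over ORS. A ratio with 1 array at the floor is a lower bound in size, written "at least". Genes counted as under 2-fold include such bounds, which do not show that the ratio itself is under 2-fold. Genes with a ratio of 2-fold or more towards early bulge are called bulge-high below, and those with as large a ratio towards ORS are called ORS-high. Sox9, which sets the 2 gates apart, read 4061 in early bulge and 676 in ORS (log2 ratio 2.59), and its other probe sets gave 0.30 and 1.07. Krt14, whose promoter drives the RFP that was bright in both gates, read 14706 and 6609 (2.23-fold, log2 ratio 1.15). Its other probe sets gave larger log2 ratios of 1.74 and 2.43. Of 6 bulge stem cell markers 3 were bulge-high and none was ORS-high (summed signal 25637 against 9268). Lhx2, Lgr5 and Tcf7l1 of this list had log2 ratios of -0.03, -0.11 and 0.34. Markers of neighbouring epithelial compartments and of the dermis also differed. All 9 measured upper follicle and junctional zone markers were bulge-high, with a summed signal of 50279 against 6416. Fst, which is also in the bulge stem cell list, gave 11360 and 1407 of these sums. Of 14 measured sebaceous gland markers 10 were bulge-high (summed signal 29674 against 7831). Of 13 dermal fibroblast markers 12 were ORS-high (summed signal 6171 in early bulge, 55409 in ORS). None of the markers matched from these lists was below the floor on both arrays. Differentiating epidermis markers were bulge-high in 6 of 8 (24360 against 5473), with Flg below the floor. Hair matrix markers were ORS-high in 4 of 5 (1592 against 9922) and pericyte and smooth muscle markers in 4 of 7 (3639 against 18495). Companion layer markers split, with log2 ratios of 5.26 for Krt6a, 1.59 for Krt17, 0.01 for Krt16 and -2.51 for Krt75. Of 7 melanocyte markers only Kit was 2-fold apart, towards ORS (log2 ratio -2.82). Of 2 Schwann cell markers 1 was bulge-high, and the 1 measured adipocyte marker was under 2-fold. The immune, endothelial and erythroid lists each summed to at most 431 on either array. The part of these cells in the values below was not tested. In sorted bulk RNA, more cells of a type and more RNA per cell cannot be told apart.

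Bulge-high genes were found in 2 of the 5 enzyme classes. In the other classes, 17 glutathione transferases, 5 Akr1 reductases and 1 glucuronosyltransferase were measured. These are too few to show that a class lacks bulge-high genes. The floor at the 20th percentile, under the highest negative control signal, gave 2 bulge-high Akr1 reductases and 2 bulge-high glucuronosyltransferases. The mean over probe sets gave 1 bulge-high glutathione transferase. Of the 121 genes, 62 were measured and 59 were below the floor on both arrays. Of the 62, 13 were bulge-high, namely 10 P450s and 3 aldehyde dehydrogenases, beside a background of 7.30% of all 13252 measured genes. ORS-high were 4 of the 62, beside a background of 4.78%. A gene that is measured only through the array on which it is high has to differ, so the 45 members above the floor on both arrays were also counted. Of these, 11 were bulge-high and 3 ORS-high, beside 6.63% and 4.35% of all 11534 genes above the floor on both. The median log2 ratio was 0.30 over the 62 measured members and 0.04 over all measured genes. The signal was higher in early bulge for 46 of the 62 members and for 7030 of the 13252 genes, and higher in ORS for 16 members and 6222 genes. By size of the higher signal, 6 of 29 members under 200, 3 of 14 between 200 and 1000 and 4 of 19 at 1000 or more were bulge-high. The shares of all measured genes in the same ranges were 5.95%, 8.98% and 6.72%.

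**Figure D1:**
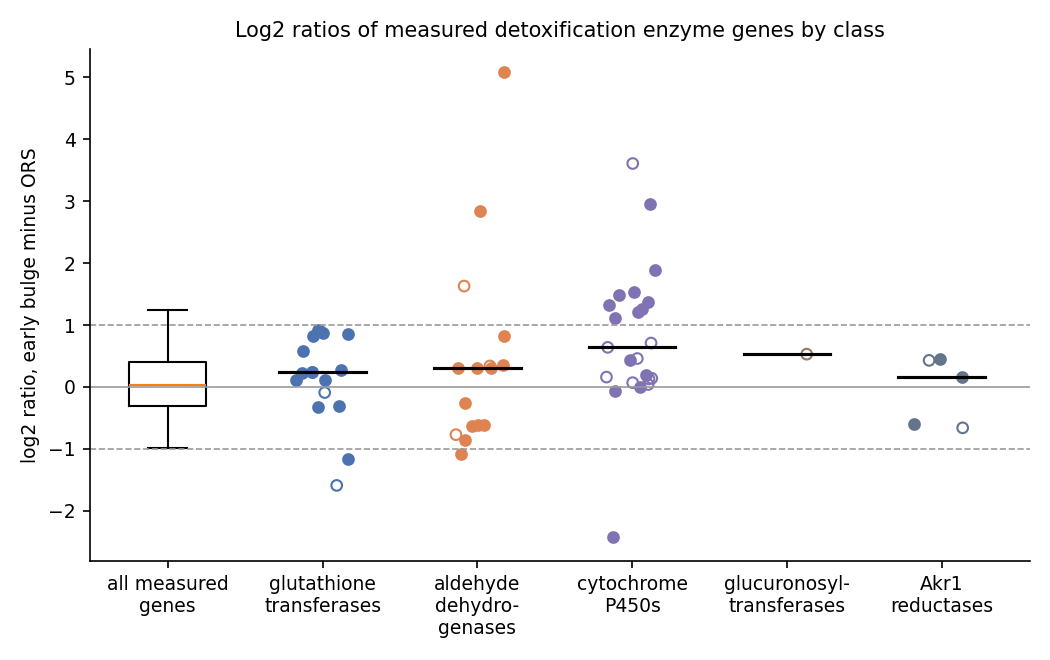
Log2 ratio (early bulge minus ORS) of each measured gene by enzyme class, with 1 array per group. Filled points were above the floor on both arrays, open points are lower bounds in size, black lines are class medians, dashed lines mark 2-fold, and the box at left gives the median, quartiles and 5th to 95th percentiles of all measured genes. The P450 and aldehyde dehydrogenase columns reach above 2.5, while no plotted value of a glutathione transferase, glucuronosyltransferase or Akr1 reductase passed 1, some of them being bounds.

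The 100 bases before the start site are shown for Cyp4b1 and Cyp2s1, which had the largest ratio in each direction among members above the floor on both arrays and listed in the RefSeq promoter table, and for Cyp1a1 and Cyp1b1, chosen after their values were seen because both hold the core of the xenobiotic response element. That element is bound by the aryl hydrocarbon receptor, and both genes are textbook targets of it. Sequences are from RefSeq (GRCm38.p6), 5′ to 3′ on the gene's own strand, and capitals mark the core.
Cyp1a1 (chr9:57697513-57697612, plus strand): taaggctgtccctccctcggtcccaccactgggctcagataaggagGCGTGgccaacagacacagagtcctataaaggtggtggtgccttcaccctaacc
Cyp1b1 (chr17:79715062-79715161, minus strand): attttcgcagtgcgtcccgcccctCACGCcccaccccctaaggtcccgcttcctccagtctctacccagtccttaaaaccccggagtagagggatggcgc
Cyp4b1 (chr4:115647722-115647821, minus strand): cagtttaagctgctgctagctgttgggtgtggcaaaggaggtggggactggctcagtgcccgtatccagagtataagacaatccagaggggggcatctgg
Cyp2s1 (chr7:25816526-25816625, minus strand): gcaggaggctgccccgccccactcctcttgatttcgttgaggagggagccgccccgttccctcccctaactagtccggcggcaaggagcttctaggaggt

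In Cyp1a1 the core lay 54 to 50 bases before the start, and in Cyp1b1 it lay 76 to 72 bases before it on the opposite strand. Both strands of windows from 250 bases before to 50 after each start were searched for the core GCGTG and for TGACNNNGC, the core of the antioxidant response element, which Nrf2 binds. The 2 patterns are different letters and were counted separately. A promoter was in the table for 99 of the 121 members. GCGTG stood in 25 of these 99, in 35.2% of all 27025 genes of the table, in 5 of 9 bulge-high members, in 1 of 4 ORS-high members, in 12 of 39 measured members under 2-fold and in 7 of 47 below the floor on both. TGACNNNGC stood in 12 of the 99 members and in 14.0% of all genes, with 1 of the 9. Those 9 are few, and a match of so short a pattern describes these letters only. Besides Cyp1a1 and Cyp1b1, the members with GCGTG among the 9 were Cyp2b10, Cyp4f39 and Cyp4v3.

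The P450 class held the most bulge-high members. Of 56 genes, 23 were measured, of which 10 were bulge-high, 1 was ORS-high and 12 lay under 2-fold. The shares over all measured genes were 7.30% bulge-high and 4.78% ORS-high. The median log2 ratio was 0.64 over the 23. Over the 14 above the floor on both arrays, 9 were bulge-high, beside 6.63% of all such genes, and the median was 1.24. Cyp4b1, which hydroxylates fatty acids and activates some foreign chemicals, read 4052 in early bulge and 522 in ORS, 7.76-fold (below, a pair of signals is in this order). Cyp2g1, best known from olfactory mucosa, read 708 and 33.8, the latter under the floor, which gives a ratio of at least 12.2-fold. Each of these was read by 1 probe set.

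Both measured members of family 1, whose enzymes oxidise polycyclic aromatic compounds, were higher on the early bulge array. Cyp1b1 read 2895 and 1251 (2.31-fold), and its other measured probe set gave a log2 ratio of 0.93. Cyp1a1 read 179 and 68.8 (2.61-fold), with the ORS value close to the floor. The remaining member, Cyp1a2, was below the floor on both arrays (7.72 and 5.73).

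Family 2 split between its members. Of 35 genes 14 were measured, and 4 were bulge-high (7.30% of all measured genes were), namely Cyp2g1, Cyp2b10, Cyp2c29 and Cyp2d22. Cyp2b10, known as a target of the constitutive androstane receptor in liver, read 470 and 127 (3.71-fold) on a probe set marked as shared among related transcripts. Its unshared probe set gave a log2 ratio of 0.84, so the size of its ratio is uncertain. Cyp2d22 read 253 and 89.8 (2.81-fold), and its other probe set gave a log2 ratio of 1.65. Cyp2c29, a P450 of arachidonic acid, read 185 and 63.8 (2.90-fold). Cyp2s1 went the other way. It is an epithelial P450 that can be induced through the aryl hydrocarbon receptor, and it read 479 and 2588, 5.40-fold higher in ORS on its only probe set. In RefSeq gene order Cyp2s1 and Cyp2b10 are consecutive coding genes, and their log2 ratios were -2.43 and 1.89. Other measured family 2 genes were dim, with no signal above 151 (Cyp2j9, 151 and 132). Cyp2e1, the ethanol-oxidising P450, read 94.7 and 29.4, a log2 ratio of at least 0.71. Of the other dim genes, Cyp2c68 and Cyp2c38 had log2 ratios of 0.00 and 0.43. Cyp2b19, Cyp2c55, Cyp2c70, Cyp2d13 and Cyp2f2 were below the floor in ORS and have lower bounds only, the highest being at least 0.64 for Cyp2c55 (90.3 and 21.1). Cyp2j6 was counted as below the floor because its main probe set read 48.9 and 23.9, whereas its other probe set reached the floor in early bulge (log2 ratio at least 0.72).

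Family 4, whose enzymes hydroxylate fatty acids, had 7 measured genes of 13, 4 of them bulge-high, beside 7.30% of all measured genes. Besides Cyp4b1 these were Cyp4v3 (175 and 70.1, 2.49-fold), Cyp4f13 (162 and 67.4, 2.40-fold) and Cyp4f39 (188 and 87.0, 2.16-fold). The Cyp4v3 ratio is from a probe set marked as shared among related transcripts. Its unshared probe set was below the floor on both arrays (33.1 and 26.1). Cyp4f39 makes the omega-hydroxylated very long fatty acids of the skin barrier, and its ratio was under 2-fold with loess or quantile scaling. Cyp4f15 and Cyp4f18 reached the floor in early bulge only, with log2 ratios of at least 0.04 and 0.13. Cyp4f16, a relative encoded close by, had a log2 ratio of -0.07 (163 and 170). None of the 5 family 3 genes, the main drug-metabolising P450s of liver and gut, was measured, and their highest signal was that of Cyp3a13 (45.9 on the early bulge array). None of the 3 Cyp4a genes was measured either. With the floor at the 60th percentile of signals (171.8) 4 P450s were bulge-high. Cyp1a1, Cyp2c29, Cyp2d22, Cyp4f39 and Cyp4v3 were then under 2-fold and Cyp4f13 was no longer measured. With a pseudocount of 50 in place of the floor 6 were bulge-high, without Cyp1a1, Cyp4f13, Cyp4f39 and Cyp4v3.

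**Figure D2:**
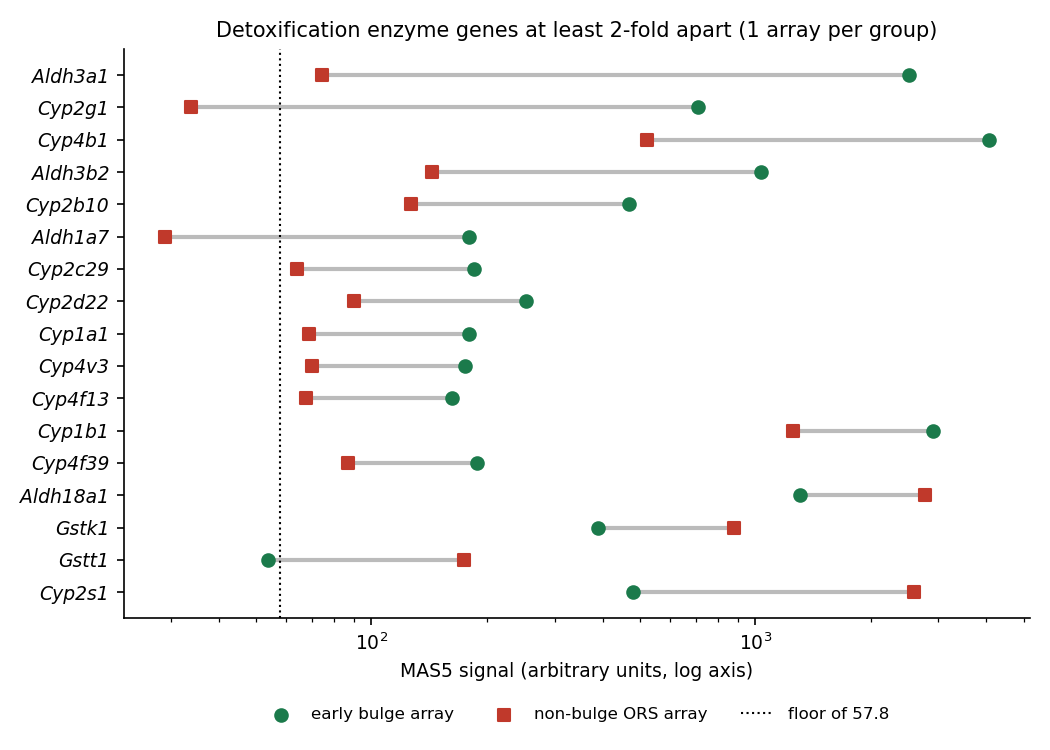
Signal (log axis) on the early bulge array (circles) and the ORS array (squares) of the 17 bulge-high or ORS-high detoxification enzyme genes, ordered by ratio, with 1 array per group and the floor of 57.8 dotted. Aldh3a1, Cyp4b1, Aldh3b2 and Cyp1b1 read over 1000 on the early bulge array, as did the ORS-high Aldh18a1, whereas Cyp2c29, Aldh1a7, Cyp1a1, Cyp4v3, Cyp4f13, Cyp4f39 and the ORS-high Gstt1 lie under 200 on both.

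Aldehyde dehydrogenases held the largest ratio of all members, within a class that went both ways. Of 17 genes 16 were measured, of which 3 were bulge-high, 1 was ORS-high and 12 lay under 2-fold. The background shares were 7.30% bulge-high and 4.78% ORS-high of all measured genes. Aldh3a1, Aldh3b2 and Cyp2g1 have no entry in the promoter table. Aldh3a1 oxidises aldehydes from lipid peroxidation and is abundant in cornea. It read 2517 and 74.3, a 33.9-fold ratio on its only probe set. Aldh3b2, an enzyme of lipid droplets, read 1034 and 144 (7.17-fold), also on 1 probe set. Aldh1a7, a close relative of the retinal dehydrogenase Aldh1a1 with which probes could cross-hybridise, read 179 and 29.0, at least 3.09-fold, but under 2-fold with the floor at the 60th percentile.

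Aldh3a2 oxidises long-chain fatty aldehydes and is the gene mutated in Sjögren-Larsson syndrome. It is next to Aldh3a1 in RefSeq gene order, and it read 852 and 666 with a log2 ratio of 0.36. Aldh3b1 was dim (73.2 and 15.3) and below the floor in ORS, so its log2 ratio of at least 0.34 cannot be set against that of Aldh3b2. Over the 4 Aldh3 genes, with this bound, the median log2 ratio was 1.60, and over the 12 other measured aldehyde dehydrogenases it was -0.44. With 1 array per population this difference between subfamilies has no test.

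Of the 12 measured aldehyde dehydrogenases outside Aldh3, 7 read higher in ORS and 5 in early bulge. Only 1 in each direction passed 2-fold, beside 7.30% of all measured genes towards early bulge and 4.78% towards ORS. Aldh18a1, which makes the precursor of proline and is not a detoxification enzyme in the strict sense, read 1310 and 2775, 2.12-fold higher in ORS. All 5 of its probe sets had that direction, with the log2 ratios of the others between -1.40 and -0.53. Its ratio was under 2-fold by the mean over probe sets or from its unshared probe set (-0.85). Aldh1l2, of mitochondrial folate metabolism, had a log2 ratio of -0.85 (286 and 517). Aldh9a1, of carnitine and polyamine metabolism, read 3954 and 6053 (log2 ratio -0.61), Aldh7a1, of lysine breakdown, 1031 and 1588 (-0.62), and Aldh16a1 764 and 1186 (-0.63). Another pair of mitochondrial enzymes read higher on the early bulge array by less than 2-fold. Aldh2, which removes acetaldehyde, read 2050 and 1648, and its 5 probe sets ran from -0.03 to 1.11, the widest range within a member. The -0.03 is a lower bound in size, from a dim probe set below the floor in early bulge (39.7 and 59.0). Aldh6a1, of valine breakdown, read 2563 and 1453 (log2 ratio 0.82). Aldh1l1, Aldh5a1 and Aldh4a1 had log2 ratios of 0.31, 0.30 and -0.26, and Aldh8a1 reached the floor in ORS only. Aldh1b1 was the one member of the class below the floor on both arrays.

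Glutathione transferases mostly had clear signals and small ratios. Of 23 genes 17 were measured. None was bulge-high, 2 were ORS-high and 15 lay under 2-fold. Among all measured genes, 7.30% were bulge-high and 4.78% ORS-high. The signal was higher in early bulge for 12 of the 17, beside 7030 of all 13252 measured genes. The median log2 ratio was 0.25. Mgst1, a membrane-bound transferase of microsomes and mitochondria, read 9562 and 8052. Gstp1, an abundant transferase of keratinocytes, read 3922 and 3638, and Gsto1, which reduces dehydroascorbate, 3771 and 3470. Their log2 ratios of 0.25, 0.11 and 0.12 lay well inside the spread between probe sets of 1 gene, whose SD of differences was 0.58 over 18642 pairs of all genes and 0.48 over 42 pairs of members.

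The mu class genes lie side by side in RefSeq gene order, 7 coding genes in a row. The 6 measured ones had a median log2 ratio of 0.43. Gstm7 read 311 and 164 (log2 ratio 0.92, other probe set 1.08), Gstm2 1296 and 718 (0.85), Gstm1 1730 and 1155 (0.58) and Gstm5 3082 and 2544 (0.28). Gstm3 was dim (108 and 90.4), Gstm4 read 204 and 256 (-0.33), and Gstm6 was below the floor. These genes are close in sequence, and 1 of the 4 probe sets of Gstm1 gave -0.21, so ratios of single mu genes are uncertain.

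Higher on the ORS array were Gstk1 and Gstt1. Gstk1, the mitochondrial and peroxisomal kappa enzyme, read 390 and 878 (2.25-fold). Gstt1 read 53.9 and 174, at least 3.01-fold, with the early bulge signal below the floor, but under 2-fold with the floor at the 60th percentile. Gstt3, a neighbour of Gstt1, had the opposite direction (372 and 209, log2 ratio 0.83). Of the others, Mgst2, which makes leukotriene C4, had a log2 ratio of 0.90 (1231 and 660), and Gsta4, which conjugates the lipid aldehyde hydroxynonenal, 0.87 (265 and 145). Mgst3 and Gstz1 had log2 ratios of 0.22 and -0.30, and Gstt2 (15.2 and 61.6) barely reached the floor. The alpha genes Gsta2 and Gsta3 were below the floor on both arrays.

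**Figure D3:**
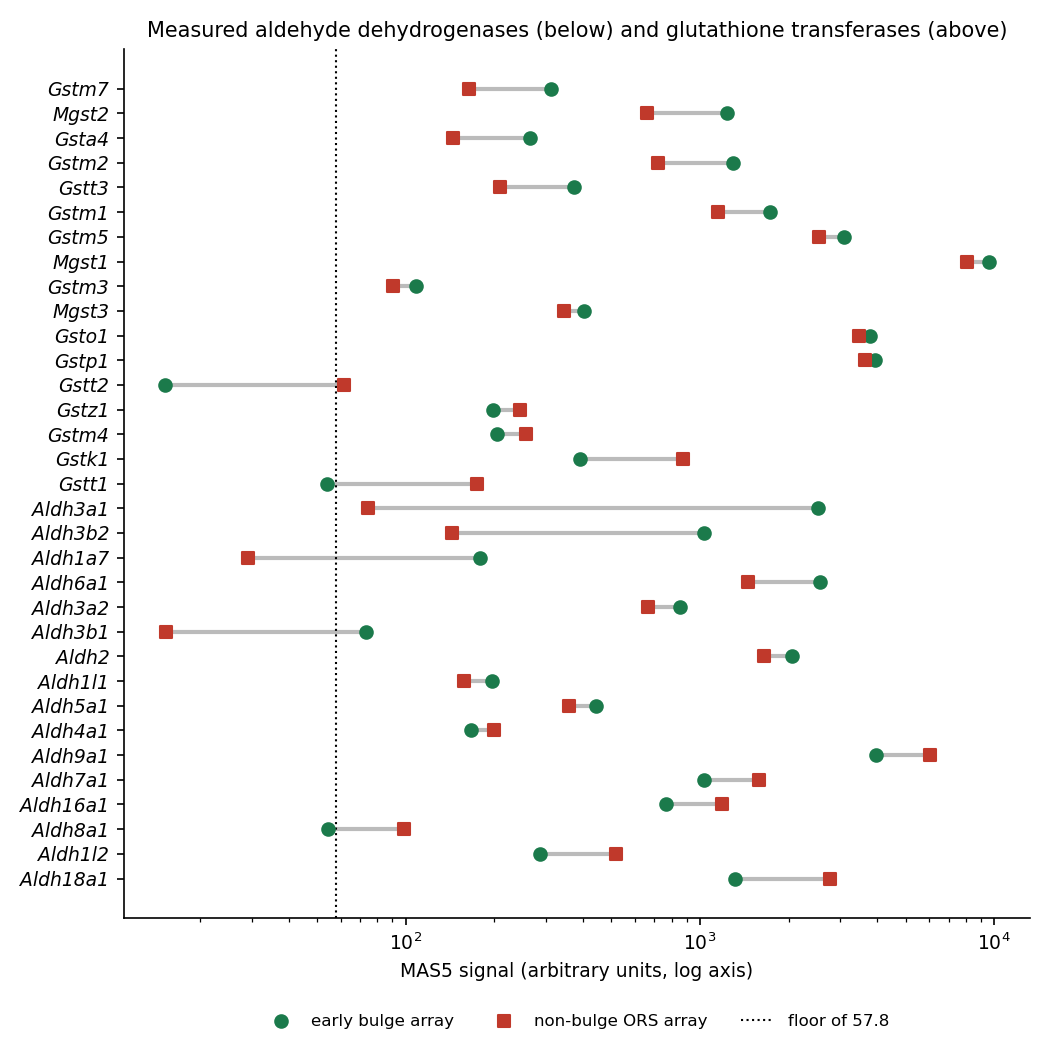
Signal (log axis) of each measured glutathione transferase (upper block) and aldehyde dehydrogenase (lower block) on the early bulge array (circles) and the ORS array (squares), ordered by ratio within each class, with 1 array per group and the floor of 57.8 dotted. Most transferases have the paired marks close together, while Aldh3a1 spans from 74.3 to 2517.

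Glucuronosyltransferases with a probe set of their own gave almost no signal. Of 11 genes only Ugt3a1 was measured (83.4 and 40.2, ORS below the floor). The 8 family 2 genes were below the floor on both arrays, the highest signal being 49.7 for Ugt2b1, and so was Ugt8a, which makes galactosylceramide. The family 1 enzymes share most of their exons, and the array reads them with 3 probe sets that are each annotated to 8 family 1 genes and are therefore outside the 121 genes. These 3 were bright: 8117 and 4858, 6587 and 4096, and 1392 and 879, with log2 ratios of 0.74, 0.69 and 0.66. No single family 1 gene can be named from them. In all, 12 probe sets annotated to several genes held a family name of the rule, and 6 of them were measured.

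Of 14 Akr1 reductases 5 were measured, and none of the 3 above the floor on both arrays was 2-fold apart. Among all genes above the floor on both, 6.63% were bulge-high and 4.35% ORS-high. Akr1a1, the aldehyde reductase of broad tissue distribution, read 21253 and 18999, and its 4 probe sets had log2 ratios between 0.06 and 0.16. Akr1b8 read 208 and 152 (0.45), and Akr1e1 95.7 and 145 (-0.60). Akr1b10 (42.0 and 91.2) and Akr1cl (77.9 and 53.7) were each below the floor on 1 array, so only bounds can be given. With the floor at the 20th percentile (18.7) the log2 ratio of Akr1b10 was -1.12, past 2-fold, and 2 Akr1 genes were bulge-high. That floor lies under the highest negative control signal. All 8 genes of the Akr1c cluster, which act on steroids and prostaglandins, were below the floor of 57.8 on both arrays, the highest being Akr1c21 at 40.7.

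Where a gene had more than 1 measured probe set, the direction mostly held. There were 12 such members, and in 10 all probe sets had 1 direction. Some of the 10 had small ratios, such as Akr1a1 (0.06 to 0.16) and Gsto1 (0.01 and 0.12). These lie inside the SD of 0.48 between probe sets of members, so their shared direction says little. Of the 17 members that were 2-fold apart, 4 had another measured probe set. All 4 kept their direction, and 1 of them (Cyp2d22) was 2-fold apart on every probe set. The other 13 were read by 1 measured probe set only, so their ratios lack even this technical check.

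**Figure D4:**
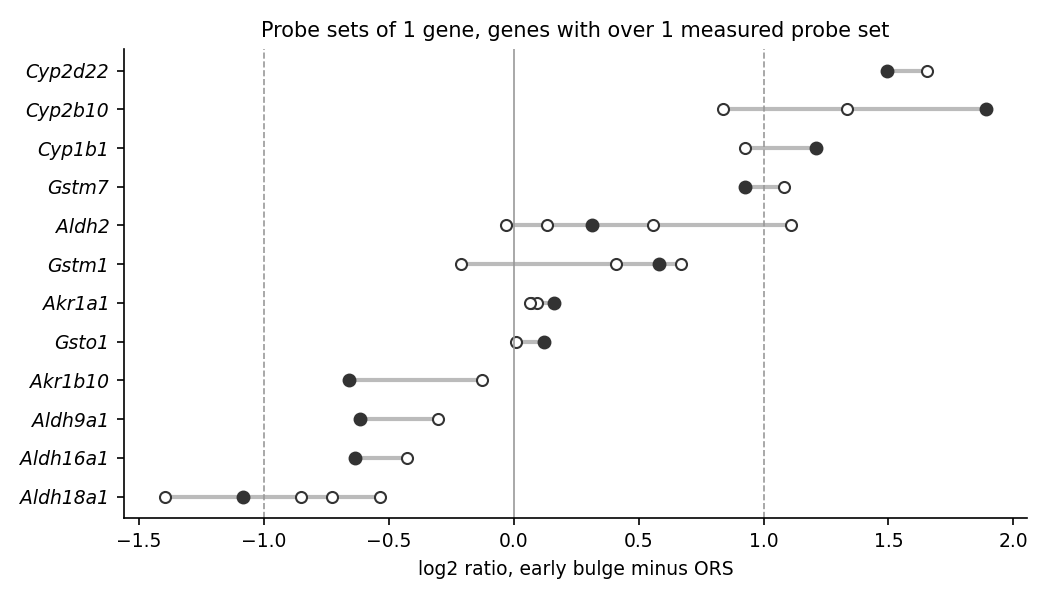
Log2 ratio (early bulge minus ORS) of every measured probe set of the 12 detoxification enzyme genes with more than 1, with 1 array per group. The filled point is the probe set that represents the gene, open points are its other probe sets and dashed lines mark 2-fold. Aldh2 has the widest range (-0.03 to 1.11), and Aldh2 and Gstm1 are the 2 genes whose probe sets lie on both sides of 0. Values of probe sets below the floor on 1 array are lower bounds in size, among them the -0.03 of Aldh2.

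Genes around these enzymes were read from 7 further lists. For each list the background is 7.30% of all measured genes bulge-high and 4.78% ORS-high, with a median log2 ratio of 0.04. Among sensors, Ahr, the aryl hydrocarbon receptor, read 5649 and 1551 (3.64-fold, other probe set 1.34 on the log2 scale). Tiparp, a target gene of this receptor that limits it, read 4154 and 1424 (2.92-fold). Of 10 measured sensors these 2 were bulge-high and none was ORS-high. The redox regulator Nfe2l2, which encodes Nrf2, and its inhibitor Keap1 had log2 ratios of -0.13 (1980 and 2167) and 0.32 (1266 and 1015). The other probe set of Nfe2l2 had the opposite direction (0.21), and that of Keap1 gave 0.27. The pregnane X receptor gene Nr1i2 and its relative Nr1i3 were below the floor, and Ahrr, another target of the aryl hydrocarbon receptor, read 6.80 and 61.9. Of 8 redox response enzymes, the quinone reductase Nqo1 (344 and 93.2, 3.69-fold) and Osgin1 (785 and 322, 2.44-fold) were bulge-high. Nqo1 is a target of both the aryl hydrocarbon receptor and Nrf2. The haem oxygenase gene Hmox1 read 77.1 and 49.2.

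Of 18 measured further phase I enzymes 6 were bulge-high and 1 was ORS-high, beside 7.30% and 4.78% of all measured genes. Their median log2 ratio was 0.49, beside 0.04 over all measured genes. The alcohol dehydrogenases Adh1 (1561 and 247, 6.32-fold) and Adh7 (675 and 265, 2.55-fold), which also oxidise retinol, the carbonyl reductase Cbr3 (2205 and 430, 5.13-fold), the epoxide hydrolases Ephx2 (575 and 142, 4.04-fold) and Ephx1 (2693 and 692, 3.89-fold) and the monooxygenase Fmo5 (at least 2.52-fold) made up the 6. The other probe sets of Adh7 and Fmo5 gave log2 ratios under 1 (0.66 for Adh7, 0.24 and 0.56 for Fmo5). Fmo2 (33.7 and 144) was the ORS-high one, at least 2.49-fold. None of 8 measured genes of sulphation, methylation and UDP-glucuronate supply was called 2-fold apart (median 0.09). The sulphotransferase Sult2b1 of cholesterol sulphation had a log2 ratio of 0.97 (178 and 90.9). Nnmt, which methylates nicotinamide, read 43.7 and 111 with early bulge below the floor, so its ratio towards ORS may pass 2-fold.

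Glutathione supply stood on the other side. Of 11 measured genes 10 had the higher signal on the ORS array, and 1 was ORS-high, beside the 6222 of 13252 over all genes. Of the 10, Ggct (-0.19), had the opposite direction on its other probe sets (0.23 and 0.38). The median log2 ratio was -0.56. The ORS-high gene was Cth, which makes cysteine from cystathionine (408 and 1624, 3.98-fold). Cbs, the step before it, had a log2 ratio of -0.99 (1051 and 2089), and Gclc, the catalytic subunit of the rate-limiting enzyme of glutathione synthesis, -0.82 (3682 and 6493). None of 10 peroxidase and thioredoxin genes was called 2-fold apart (median -0.14), with Gpx2 (30.3 and 87.3) below the floor in early bulge. Of 7 measured efflux pumps, Abcc4 was bulge-high (494 and 198, 2.49-fold), and Abcg2 (321 and 857, 2.67-fold) and Abcb1b (66.1 and 165, log2 ratio -1.32) were ORS-high. Abcg2 exports drugs and porphyrins and marks side population cells.

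**Figure D5:**
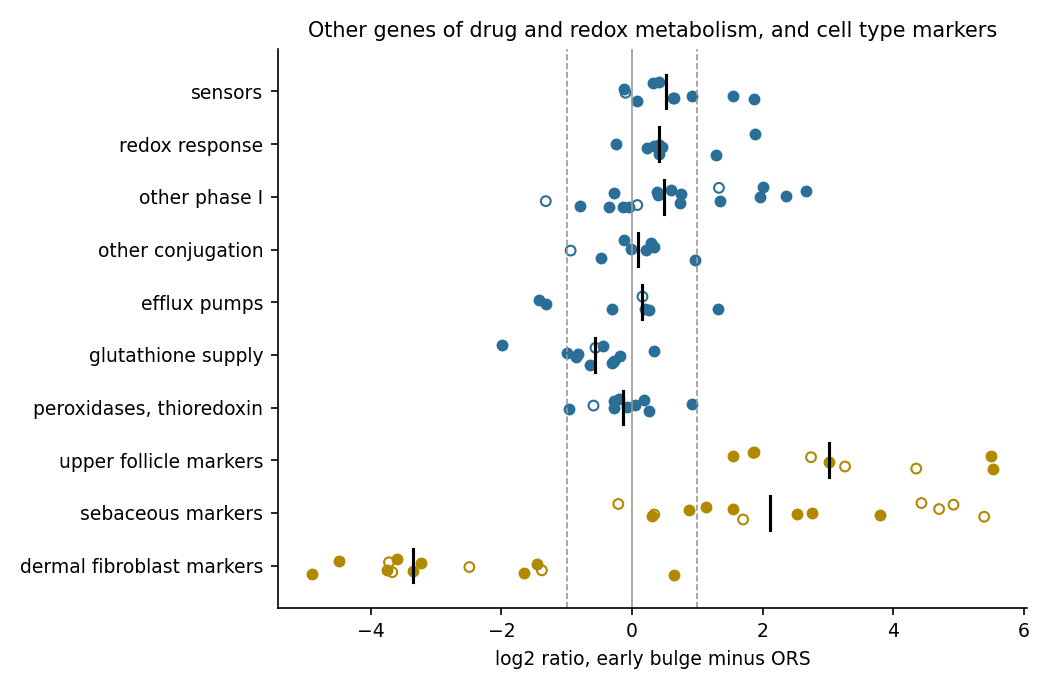
Log2 ratio (early bulge minus ORS) of each measured gene of 7 lists around the detoxification enzymes (blue) and of 3 cell type marker lists (ochre), with 1 array per group. Open points are lower bounds in size, black lines are list medians and dashed lines mark 2-fold. The medians run from -0.56 for glutathione supply to 0.52 for sensors, and from -3.35 for dermal fibroblast markers to 3.01 for upper follicle markers.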

How the data were processed

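Each deposited value is the MAS5 intensity of 1 probe set on a linear scale. Per the submitters' processing notes the authors used Affymetrix Expression Console, and its version and the genome build are not given in the sources used here. The 2% trimmed mean was 500.0 on both arrays, so each had been scaled to 1 target. MAS5 subtracts mismatch signals, and its low values are noisy. Probe-level data and detection calls were not used here.

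Gene names came from the platform annotation, and probe sets with several genes (932), without a gene (9160) or serving as controls (64) were left out of gene counts. The members and lists were chosen with earlier results of these data known. Values were computed with Python 3.11.15, numpy 2.4.6, pandas 2.3.3 and statsmodels 0.14.6. The procedure was tested on simulated data with the same noise at every signal, in which only genes well above the floor were changed. How well it finds changes near the floor was not tested. Named are all measured members at least 2-fold apart, up to 5 members of each class with the highest mean log2 signal, and list members at least 2-fold apart or fixed as sensors. Other members named for contrast were chosen after their values were seen. Alternatives were loess (span 0.4) and quantile scaling, floors at the 20th and 60th percentile, a pseudocount of 50, the mean over probe sets, and only probe sets whose suffix marks no cross-hybridisation. RefSeq gene order gave neighbours for 119 of the 121 genes. With 1 array per population, precision is limited by the number of arrays.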

Additional observations from a re-analysis of the deposited data

How the results depend on the processing

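The median log2 ratio of the detoxification enzymes lay between 0.22 and 0.34 under the 7 alternatives, and none of the 17 genes that were 2-fold apart changed direction. Of these, 7 stayed at least 2-fold apart under every alternative that gave a value: Aldh3a1, Aldh3b2, Cyp1b1, Cyp2g1 and Cyp4b1 towards early bulge and Cyp2s1 and Gstk1 towards ORS. The other 10 fell under 2-fold at least once. Counts depended on the floor. The floor at the 20th percentile (18.7) lay under the highest negative control signal of 28.1, so calls near it are uncertain. With it, 102 members were measured, 24 of them bulge-high and 7 ORS-high. These included 16 P450s, 2 glucuronosyltransferases and 2 Akr1 reductases towards early bulge, and 1 glucuronosyltransferase and 1 Akr1 reductase towards ORS. With the floor at the 60th percentile, 41 members were measured. Of these, 6 were bulge-high, 4 of them P450s, and 3 were ORS-high, 1 of them a glutathione transferase. The bulge-high share of all measured genes was 11.4% and 6.11% at these floors, and the ORS-high share was 6.01% and 4.23%. A pseudocount left 6 bulge-high P450s. The mean over probe sets gave 1 glutathione transferase towards early bulge, and with it, as with unshared probe sets only, 0 aldehyde dehydrogenases were ORS-high. Replicates could not be left out, and no paired fit exists with 1 array per group.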
